A study of Homo sapiens with 8 samples.

Results

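The genes examined were 10 members of the stress response driven by the transcription factor ATF4 in U-87MG cells: ATF4 itself, DDIT3, TRIB3, PHGDH, PSAT1, PSPH, ASNS, CHAC1, SESN2 and STC2. They were taken by name, as the rows of the deposited expression table whose annotated symbol was exactly one of these, and all 10 were found, each with 1 row, among 11822 genes. U-87MG is an established human glioblastoma cell line. One group received indole-3-carboxaldehyde (I3CA), an indole aldehyde formed from tryptophan, at 50 µM for 24 h and is called I3CA here (4 arrays). The other received the solvent DMSO for the same time (4 arrays). Per the labels, cells of both groups grew in the same phenol-red free medium with high glucose, serum, glutamine, pyruvate and antibiotics, and each sample is labelled as U-87MG with no modification named. The series is on activation of the aryl hydrocarbon receptor, AHR, a ligand-activated transcription factor, and I3CA was 1 of the compounds tried as its ligand. The arrays of a group carry biological replicate numbers 1 to 4. Nothing in the labels says that these were separate cultures, so p-values measure the spread between these samples, which may be technical.

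When a cell lacks amino acids or folds proteins poorly, stress kinases phosphorylate the initiation factor eIF2alpha. General translation then slows, while translation of the ATF4 message goes up. ATF4 pairs with C/EBP-family proteins at composite C/EBP-ATF elements and switches on genes for amino acid synthesis, amino acid uptake and tRNA charging, together with regulators that end the response or push the cell toward death. Many tumour cells draw on the serine synthesis branch of this programme for growth. STC2, a secreted glycoprotein, is induced by endoplasmic reticulum stress through this pathway, and it has also been described as an AHR target.

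The promoters shown are those of the genes that held the C/EBP-ATF core letters or at least 3 copies of the AHR core letters, so that the motifs of both pathways can be seen beside the values. RefSeq windows on GRCh38.p14, from 250 bases before to 50 bases after a gene's start, existed for 9 of the 10 genes (14 windows, since some genes have several starts). STC2 and TRIB3 are shown with the AHR core motif GCGTG (reverse CACGC) in capitals. Overlapping matches were counted. The STC2 window (chr5:173328365-173328664, minus strand) held 3 matches and the TRIB3 window (chr20:381045-381344, plus strand) held 6.
STC2: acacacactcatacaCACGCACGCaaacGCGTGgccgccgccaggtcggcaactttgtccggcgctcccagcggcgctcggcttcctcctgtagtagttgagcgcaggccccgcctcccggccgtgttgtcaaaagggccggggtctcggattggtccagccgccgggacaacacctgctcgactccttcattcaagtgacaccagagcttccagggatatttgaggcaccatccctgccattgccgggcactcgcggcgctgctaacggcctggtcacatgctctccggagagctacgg
TRIB3: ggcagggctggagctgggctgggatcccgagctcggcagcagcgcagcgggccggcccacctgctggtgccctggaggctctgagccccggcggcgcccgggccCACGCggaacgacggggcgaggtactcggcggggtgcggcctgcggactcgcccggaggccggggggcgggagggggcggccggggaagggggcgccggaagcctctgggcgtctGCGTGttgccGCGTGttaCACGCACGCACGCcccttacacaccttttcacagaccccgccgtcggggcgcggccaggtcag
ASNS and CHAC1 are shown with the C/EBP-ATF core motif TGATGNAA (reverse TTNCATCA) in capitals. It lay at bases -68 to -61 from the start in ASNS (chr7:97872359-97872658, minus strand) and at -209 to -202 in CHAC1 (chr15:40953221-40953520, plus strand). Both windows also held the AHR core letters, left in lower case, at -53 to -49 in ASNS and -51 to -47 in CHAC1.
ASNS: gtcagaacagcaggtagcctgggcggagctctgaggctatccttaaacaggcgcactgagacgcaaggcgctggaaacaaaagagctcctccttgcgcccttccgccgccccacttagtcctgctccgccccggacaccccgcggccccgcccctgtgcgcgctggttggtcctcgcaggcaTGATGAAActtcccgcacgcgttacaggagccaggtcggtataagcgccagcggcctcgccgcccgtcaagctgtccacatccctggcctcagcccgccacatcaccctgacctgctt
CHAC1: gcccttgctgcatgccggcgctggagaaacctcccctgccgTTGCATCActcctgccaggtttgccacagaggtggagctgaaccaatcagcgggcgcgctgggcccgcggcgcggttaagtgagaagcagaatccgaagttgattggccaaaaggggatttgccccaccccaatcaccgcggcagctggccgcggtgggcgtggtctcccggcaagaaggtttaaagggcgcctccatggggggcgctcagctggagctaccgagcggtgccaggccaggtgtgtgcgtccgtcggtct
Both strands of 35116 windows were searched. TGATGNAA was in 3.62% of them, and among the 10 genes in a window of ASNS and CHAC1. GCGTG was in 36.5% of windows, and in a window of 7 of the 10 genes. At least 3 matches to GCGTG stood in 4.30% of windows. The longer AHR motif TNGCGTG, which contains the core, was in 5.51% of windows, and in a window of STC2 and ASNS. In ASNS it lay in the window of another start, which is not shown. The shares are per window and the counts per gene, so the 2 do not measure an excess. Some genes had several overlapping windows, and PSPH had none. A match describes letters and not binding.

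With I3CA, 0 of the 10 genes passed the threshold for a difference from DMSO, a Benjamini-Hochberg adjusted p under 0.05 in limma over all genes. Of all 11822 genes 0.00846% were called, which is 1 gene. At an unadjusted p under 0.05 STC2 alone of the 10 stood out, where 3.16% of all genes did, 1.74% with a higher level. The mean was higher with I3CA in 7 of the 10 genes and lower in 3, against 46.6% of all genes with a higher mean. The median difference of the 10 was 0.07 on the log2 scale, and that of all genes was -0.01. A pattern by replicate number ran through most of them. In 8 of the 10 the array numbered 4 was the lowest of its group in both groups, against 12.2% of all genes. All values below are log2 expression, so a difference of 1 is a doubling. In a bulk sample less RNA per cell and fewer cells expressing a gene cannot be told apart.

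**Figure D1:**
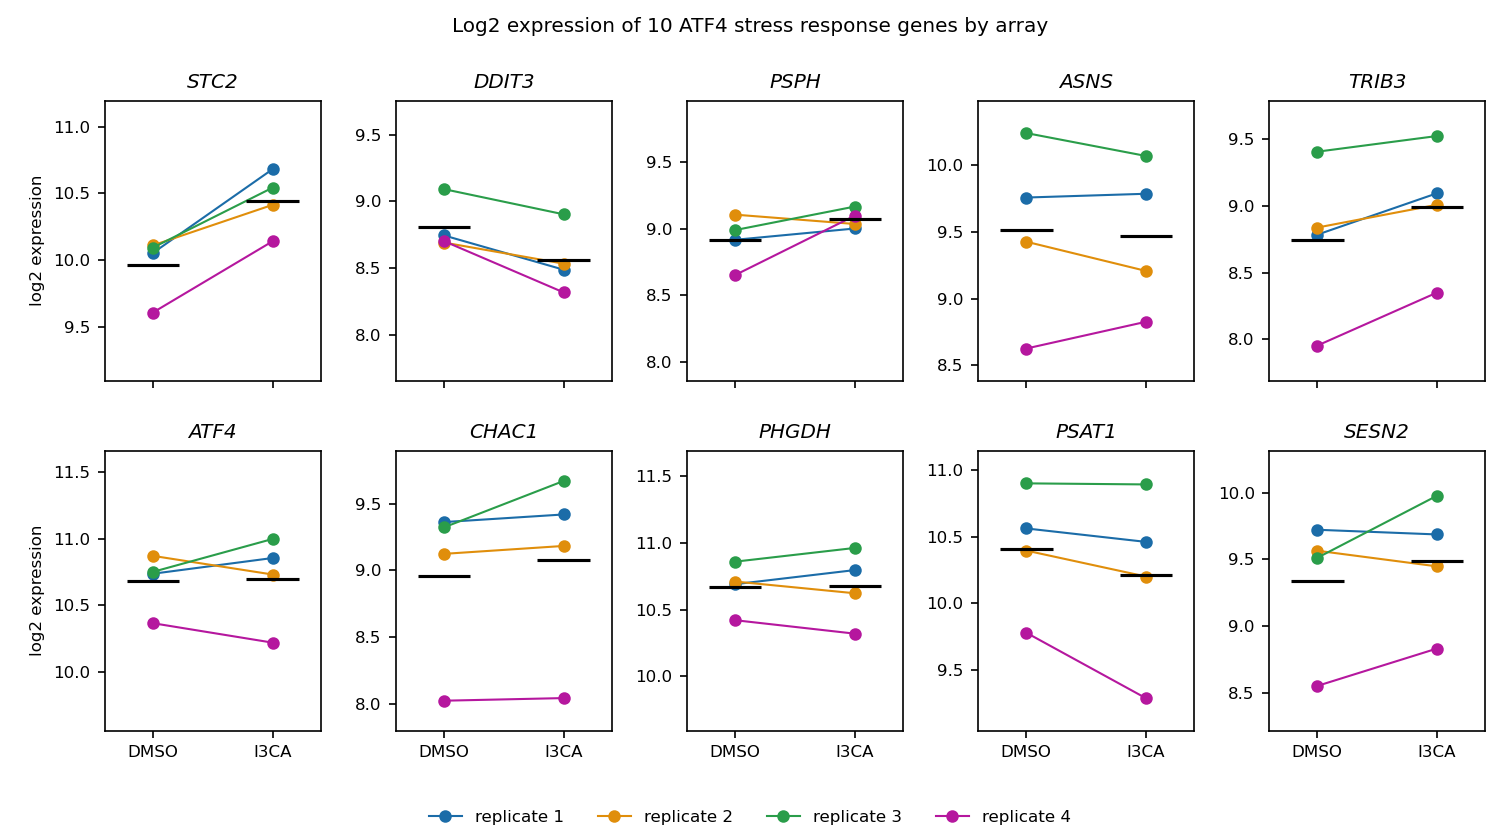
Log2 expression of each gene (vertical axes, all of equal length) in DMSO and I3CA arrays. Points are arrays, lines join arrays of equal replicate number and black bars are group means. In STC2 the 4 I3CA points lie between 10.14 and 10.68, all above the DMSO points, and in CHAC1 both arrays numbered 4 lie near 8.0 with the other 6 above 9.1.

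STC2 (probe set 17002899) was at 10.05, 10.11, 10.09 and 9.61 in DMSO replicates 1 to 4, and at 10.68, 10.41, 10.54 and 10.14 with I3CA. All I3CA arrays were above all DMSO arrays, if narrowly, since the lowest I3CA array was replicate 4 and the highest DMSO array replicate 2. Groups set apart in this direction were seen in 0.964% of all genes (1.92% in either direction) and in 1 of these 10. The DMSO arrays averaged 9.97 ± 0.24 (SD, n = 4), and the I3CA arrays 10.45 ± 0.23 (SD, n = 4). The difference of 0.48 ± 0.14 (SE), or 1.39-fold, did not pass over all genes (limma adjusted p = 1.00, unadjusted p = 0.0069, rank 60 of 11822). An exact two-sided permutation over the 70 assignments of the arrays gave p = 0.029 for STC2, the smallest it can give, unadjusted for the 10 genes. The 10 genes were chosen with earlier results of these data known, which the p-values of STC2 do not take into account. Taken by replicate number, I3CA exceeded DMSO by 0.63, 0.30, 0.45 and 0.54, so STC2 was higher in 4 of 4 numbers, including number 4, where both arrays were low.

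ATF4 (16930303), the factor itself, was at 10.74, 10.87, 10.75 and 10.37 in DMSO replicates 1 to 4 and at 10.86, 10.73, 11.00 and 10.22 with I3CA. The groups overlapped almost fully, and the array numbered 4 was the lowest of both. Its difference was 0.02 ± 0.17 (SE), with a 95% interval from -0.35 to 0.39. ATF4 is controlled largely at translation, which an array of RNA does not measure.

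DDIT3 (16766582), which encodes CHOP, a C/EBP-family partner of ATF4 that promotes cell death under lasting stress, had a lower mean with I3CA. Its values were 8.74, 8.69, 9.09 and 8.70 with DMSO and 8.49, 8.53, 8.90 and 8.32 with I3CA. The I3CA array numbered 3 lay above 3 of the 4 DMSO arrays, so the groups overlapped. The difference was -0.25 ± 0.14 (SE), with a 95% interval from -0.55 to 0.05 and an exact permutation p = 0.14. By replicate number DDIT3 was lower with I3CA in 4 of 4, by differences of -0.26, -0.16, -0.19 and -0.38.

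TRIB3 (16910614), a pseudokinase that is induced by ATF4 and CHOP and restrains both, was at 8.79, 8.84, 9.41 and 7.95 with DMSO and at 9.10, 9.01, 9.53 and 8.35 with I3CA. The groups overlapped, because the span within a group was far wider than the difference of 0.25 ± 0.30 (SE). Within each replicate number I3CA was above DMSO, by 0.31, 0.17, 0.12 and 0.40. TRIB3 thus ran opposite to DDIT3 in all 4 numbers. The difference of TRIB3 was -0.01 without DMSO replicate 4 and 0.20 without both arrays numbered 4.

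Of the 3 enzymes that make serine from a glycolytic intermediate, none passed. PHGDH (16669392), which catalyses the first step, was at 10.69, 10.71, 10.86 and 10.42 with DMSO and at 10.80, 10.62, 10.96 and 10.32 with I3CA. The group means were 0.01 ± 0.14 (SE) apart, and the arrays ran in almost the same order in both groups. PSAT1 (17086194), the aminotransferase of the second step, was at 10.56, 10.40, 10.90 and 9.78 with DMSO and at 10.46, 10.20, 10.89 and 9.29 with I3CA. PSAT1 was lower with I3CA in 4 of 4 replicate numbers, but by only -0.01 in number 3 and by -0.49 in number 4. Its difference was -0.20 ± 0.32 (SE), which became 0.11 without I3CA replicate 4 and -0.10 without both arrays numbered 4.

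PSPH (17057947), the phosphatase of the last step, was at 8.92, 9.11, 8.99 and 8.65 with DMSO and at 9.0, 9.04, 9.17 and 9.10 with I3CA. PSPH was the 1 gene of the 10 in which the I3CA array numbered 4 was not the lowest with I3CA. It had the smallest pooled SD within groups of the 10 (0.15, the median of all genes being 0.15 as well). Its difference was 0.16 ± 0.10 (SE), with a 95% interval from -0.07 to 0.39, and it was 0.07 without DMSO replicate 4, the low DMSO array.

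ASNS (17060062), which makes asparagine from aspartate and glutamine, was at 9.76, 9.43, 10.24 and 8.62 with DMSO and at 9.79, 9.21, 10.07 and 8.83 with I3CA. From lowest to highest, replicates 4, 2, 1 and 3 followed each other in both groups. The difference of -0.04 ± 0.34 (SE) was small beside that span, and I3CA was higher in 2 of 4 numbers. With a 95% interval from -0.80 to 0.71 in this unpaired fit, a difference of the size of STC2 could not be told from 0 there. In a limma fit that also took replicate number as a block, the difference of ASNS was -0.04 ± 0.09 (SE). The labels do not say that a number marks a shared culture.

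CHAC1 (16799742), a glutathione-degrading cyclotransferase and an early ATF4 target, was at 9.36, 9.12, 9.32 and 8.02 with DMSO. With I3CA it was at 9.42, 9.18, 9.67 and 8.04. Both arrays numbered 4 lay over 1 log2 unit below the other arrays. The difference was 0.12 ± 0.37 (SE), and by number I3CA was higher in 4 of 4, by 0.06, 0.06, 0.35 and 0.02. The difference was -0.19 without DMSO replicate 4, 0.47 without I3CA replicate 4 and 0.16 without both.

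SESN2 (16661545), a leucine sensor that inhibits mTORC1, was at 9.72, 9.57, 9.51 and 8.55 with DMSO and at 9.69, 9.45, 9.98 and 8.83 with I3CA. The groups overlapped, with the array numbered 4 lowest in both. The difference was 0.15 ± 0.28 (SE), and I3CA was higher in 2 of 4 numbers. The difference was -0.11 without DMSO replicate 4, 0.37 without I3CA replicate 4 and 0.10 without both.

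In total 3 of the 10 genes (STC2, TRIB3 and CHAC1) were higher with I3CA in 4 of 4 replicate numbers, against 6.06% of all genes. Another 2 (DDIT3 and PSAT1) were lower in 4 of 4, against 6.68% of all genes. The 10 genes therefore did not all differ in 1 direction when compared by number. These counts are descriptions, since the labels do not say that a number marks a shared culture or day. Without DMSO replicate 4 the count of the 10 genes with a higher mean was 2 and the median difference -0.10. Without I3CA replicate 3 they were 3 and -0.08.

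**Figure D2:**
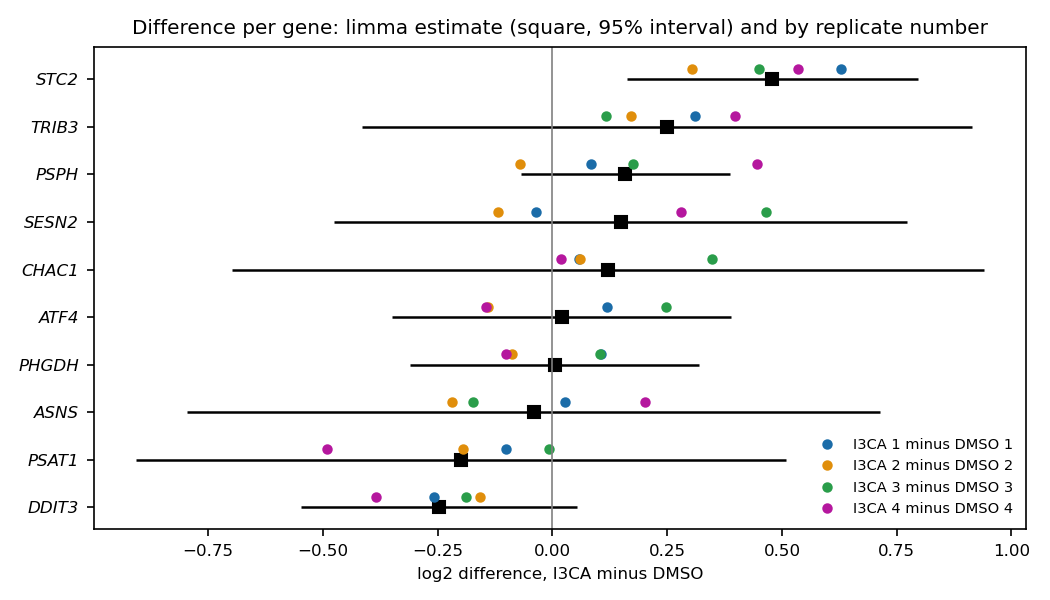
Log2 difference, I3CA minus DMSO, per gene. Squares are limma estimates with 95% intervals from all 8 arrays, and coloured points are differences between arrays of equal replicate number. STC2 at 0.48 is the 1 gene whose interval does not include 0, and the points of TRIB3, CHAC1, PSAT1 and DDIT3 each lie on 1 side of 0 inside wide intervals.

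The spread within groups was large for these genes and followed the replicate number. The pooled SD within groups had a median of 0.40 over the 10 genes, against 0.15 over all genes. CHAC1 (0.68), ASNS (0.62), PSAT1 (0.58), TRIB3 (0.54) and SESN2 (0.51) were each above the 99th percentile of all genes. The part of the variance within groups that lay between replicate numbers was 98.7% for CHAC1, 98.6% for TRIB3 and 97.6% for ASNS. It was over 80% for 9 of the 10 genes, against 22.2% of all genes, and was 44.5% for PSPH.

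The arrays numbered 4 lay at the low end of that spread in most of these genes. The share of the spread due to number 4 alone was not computed. The 6 other arrays averaged 1.31 above the arrays numbered 4 for CHAC1 (2.49-fold), 1.03 for PSAT1, 1.02 for ASNS, 0.96 for SESN2, 0.96 for TRIB3 and 0.53 for ATF4. The smaller values were 0.44 for STC2, 0.40 for PHGDH, 0.23 for DDIT3 and 0.16 for PSPH. In 7 genes both arrays numbered 4 were below all 6 other arrays, as in 8.67% of all genes. The exceptions were STC2, DDIT3 and PSPH. Number 3 was at the other end, as the highest array of both groups in 5 genes (DDIT3, ASNS, TRIB3, PHGDH and PSAT1), against 8.02% of all genes.

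The arrays numbered 4 also stood apart over the whole table. On the first principal component over all genes, which held 24.8% of the variance, they were at 15.3 (DMSO) and 16.4 (I3CA), with the other 6 arrays between -11.2 and 0.39. Median log2 values of the arrays lay between 8.8 and 8.83. Housekeeping genes averaged 10.38 and 10.34 in the DMSO and I3CA arrays numbered 4, inside the 10.34 to 10.42 of the other 6 arrays, and 2 of 7 had number 4 lowest in both groups. Of the markers of glioma and mesenchymal cells (5 measured of 9), endothelium (2 of 5), macrophages and leukocytes (3 of 5), neurons (4 of 5) and epithelium (3 of 5), 0 had number 4 lowest in both groups. The measured glioma markers included VIM, CD44 and GFAP, and OLIG2 and SOX2 were not analysed here. The table has no measure of background, so the value of a marker does not tell whether it was expressed. The mean of the macrophage and leukocyte markers was 8.54 and 8.89 in the arrays numbered 4 (DMSO and I3CA), against 8.34 to 8.70 in the other 6. These markers differed among themselves. CSF1R was highest in number 4 of both groups (9.17 and 9.23), as were KDR and CHI3L1 of other lists. AIF1 was lowest in DMSO replicate 4 (7.93) and highest in I3CA replicate 4 (8.74). The part of these markers in the low values of number 4 was not tested.

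Across the 8 arrays most of the genes varied together, and more closely with number 4 included. Over the 45 pairs of the 10 genes Pearson's r had a median of 0.73, and 43 pairs were above 0, while the median over all pairs of genes in the table was 0.00. An r over 0.8 was reached by 21 of the 45 pairs, or 46.7%, against 1.12% of all pairs of genes. Since both arrays numbered 4 form a separate cluster in 7 of the genes, r was also taken over the 6 other arrays. There the median was 0.51, 41 pairs were above 0, and 8 pairs or 17.8% were over 0.8, against 3.05% of all pairs.

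With exact two-sided permutation of the 8 arrays and Benjamini-Hochberg adjustment over the 45 pairs, 22 pairs passed by Pearson's r and 7 by Spearman's rho. Permutation took the arrays as independent. In most of these genes the variance within groups lay mainly between replicate numbers, so the permutation p-values may be too small. The 22 were all 21 pairs among ATF4, ASNS, CHAC1, PHGDH, PSAT1, SESN2 and TRIB3, with r from 0.80 to 0.98, and the pair of DDIT3 and PSAT1. Over the 6 arrays without number 4, exact permutation left 0 of 45 pairs after adjustment by either measure (smallest adjusted p = 0.25 by r), with 8 pairs at an unadjusted p under 0.05 by r and 2 by rho. With 6 arrays there are only 720 pairings, so a lost call does not by itself show a weaker relation. The r of ASNS and PSAT1 was 0.92 over 8 arrays and 0.96 over 6, and that pair too was no longer called. In all other pairs among the 7 genes r was lower over 6 arrays, for ASNS and ATF4 0.27 after 0.80 over 8.

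The closest pair was CHAC1 and SESN2, with r = 0.98 (adjusted exact permutation p = 0.010) and rho = 0.90 (adjusted exact permutation p = 0.034) over 8 arrays. Leaving out the 2 arrays farthest from the median of CHAC1, which were those numbered 4, gave r = 0.90. ASNS and PSAT1 had r = 0.92 and rho = 0.95 over 8 arrays (adjusted exact permutation p = 0.010 and 0.034), and r = 0.96 without the arrays numbered 4, which were again the 2 farthest. PSAT1 and PHGDH, enzymes of the same pathway, had r = 0.97 and rho = 0.90 over 8 arrays (adjusted exact permutation p = 0.0089 and 0.034), and r = 0.89 without number 4. PSPH, the last enzyme of that pathway, had r = 0.26 with PSAT1 and 0.42 with PHGDH over 8 arrays, and did not pass with either.

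STC2 was outside that block. Its r with the other 9 genes ran from -0.16 (DDIT3) to 0.73 (TRIB3) over 8 arrays, and its rho from -0.40 to 0.67. None of the 9 passed (smallest adjusted exact permutation p = 0.075 for r and 0.17 for rho). Leaving out the 2 arrays farthest from the median of STC2, DMSO replicate 4 and I3CA replicate 1, gave r from 0.02 to 0.60, and over the 6 arrays without number 4 it ran from -0.48 to 0.51. After each group's mean was subtracted, so that the treatment difference no longer entered, STC2 had r = 0.93 with CHAC1, 0.93 with SESN2 and 0.91 with ATF4 over 8 arrays. Without number 4 these were 0.32, 0.32 and 0.46. The median over the 45 pairs treated in this way was 0.87 with number 4 and 0.55 without.

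**Figure D3:**
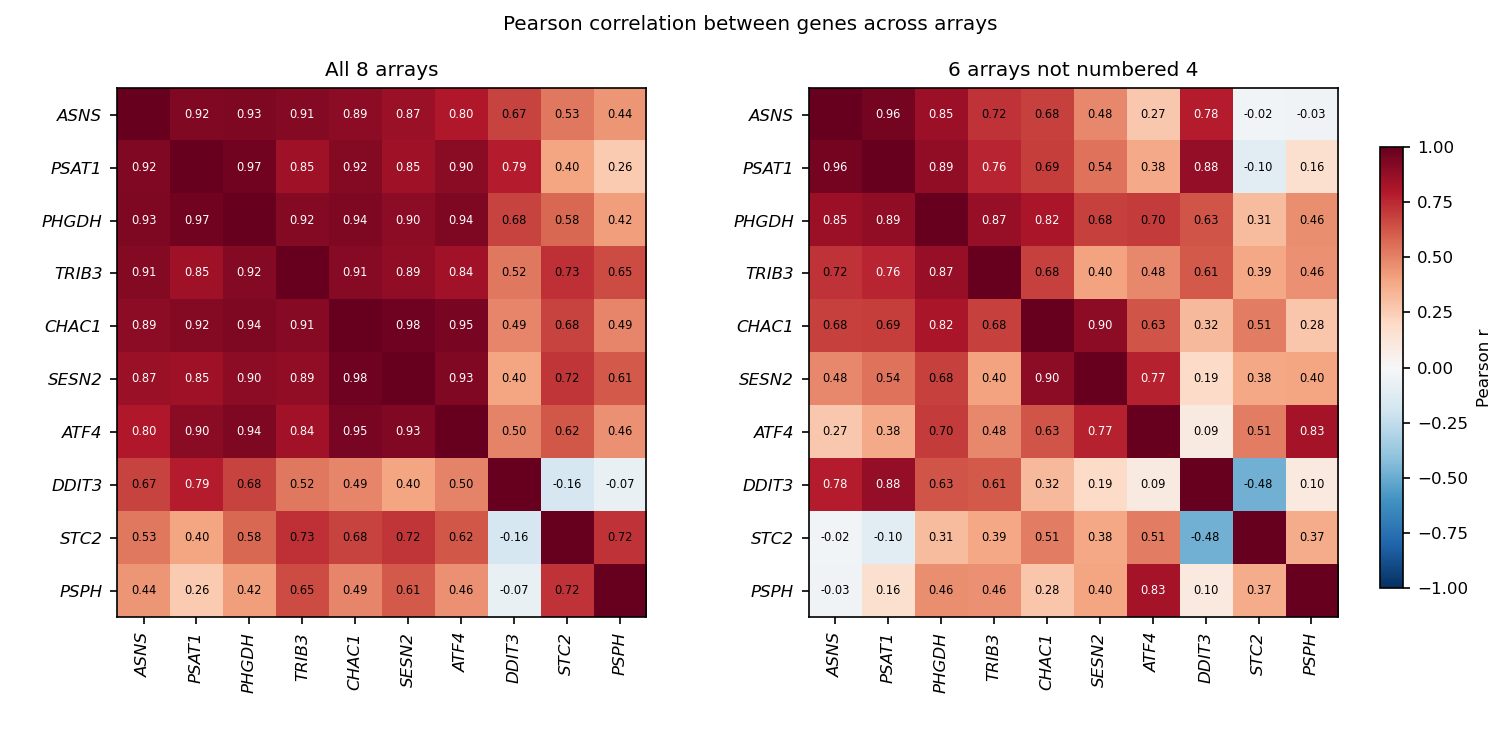
Pearson's r between each pair of genes over all 8 arrays (left) and over the 6 arrays not numbered 4 (right), on a colour scale from -1 to 1. The block of 7 genes from ASNS to ATF4 lies between 0.80 and 0.98 on the left and between 0.27 and 0.96 on the right, where ASNS and PSAT1 have the highest r.

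Genes outside the set with the most similar pattern were taken from the whole table by r after subtraction of group means over the 8 arrays. Genes picked in this way have a high r by selection, so the values are descriptions. The r without number 4 reuses arrays that took part in the choice. For the mean of the 10 genes these were VLDLR, a lipoprotein receptor induced by ATF4 (r = 0.99, difference 0.12 ± 0.20 SE), and AARS, the alanyl-tRNA synthetase gene (r = 0.99, 0.01 ± 0.17). They were followed by C10orf118, an older symbol that RefSeq lists for CCDC186 (0.99), MARS, the older symbol of the methionyl-tRNA synthetase gene MARS1 (0.99), and CEBPG, a C/EBP-family partner of ATF4 (0.99, 0.06 ± 0.16). RefSeq lists MARS also as an older synonym of SLA2, and the annotation held no identifier to settle it. Without number 4 their r lay between 0.93 and 0.99. VLDLR was at 9.33, 9.21, 9.46 and 8.65 with DMSO and at 9.40, 9.32, 9.59 and 8.81 with I3CA, the same order of replicate numbers in both groups. For STC2 alone the nearest genes were CABIN1, TMEM33, LRIF1, PTAR1 and AP1S2, with r from 0.97 to 0.98, and from 0.71 to 0.98 without number 4.

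**Figure D4:**
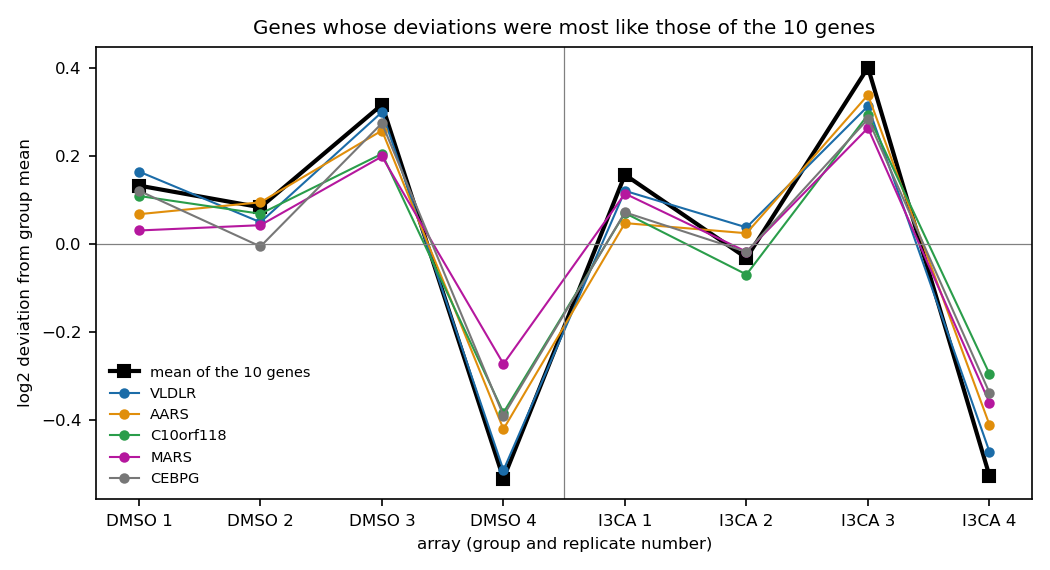
Deviation of log2 expression from the group mean in each of the 8 arrays, for the mean of the 10 genes (black squares) and the 5 genes most like it. All lines are highest in replicate 3 and lowest in replicate 4 of both groups. The mean of the 10 genes is at -0.53 in both arrays numbered 4, 0.32 in DMSO replicate 3 and 0.40 in I3CA replicate 3.

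Wider lists of the pathway were described in the same way, and their counts for number 4 stand against 12.2% of all genes, with no test of the difference. Of 33 measured other ATF4 target genes (38 listed) 0 passed in either direction, 17 had a higher mean with I3CA, and the median difference was 0.01. Number 4 was the lowest array of both groups in 23 of the 33. The median of the other arrays over number 4 was 0.38, against -0.01 for all genes. The genes with the widest gaps, chosen after their values were seen, were SLC7A11, the cystine transporter (1.5), DDIT4, an mTORC1 inhibitor (1.27), and CTH, which makes cysteine (1.09). SLC7A11 was at 9.48, 9.23, 9.57 and 7.85 with DMSO and at 9.55, 9.17, 9.80 and 8.09 with I3CA. By p in the treatment comparison the list was led by VEGFA, an angiogenic growth factor (0.28 ± 0.14 SE), ATG12, an autophagy gene (-0.13 ± 0.09), and PCK2, mitochondrial PEP carboxykinase (0.28 ± 0.21).

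Upstream of ATF4, the eIF2alpha kinases, eIF2B subunits and phosphatase genes had 0 of 17 past the threshold, with 9 higher means and a median of 0.01. EIF2AK4, the amino acid sensor GCN2, differed by -0.11 ± 0.10 (SE), EIF2B3 by -0.11 ± 0.09 and IMPACT, a GCN2 inhibitor, by 0.09 ± 0.10. Number 4 was lowest in both groups in 3 of these 17 genes. Among ATF4 partners and related factors 0 of 11 passed, 7 had higher means and the median was 0.06. NFE2L2, which encodes NRF2, was the leading gene at 0.18 ± 0.09 (SE), with I3CA arrays all above DMSO arrays, as in 0.964% of all genes. It was the 1 gene of the 195 measured on the lists whose groups did not overlap. BATF2 differed by -0.16 ± 0.09 and CEBPB by 0.10 ± 0.08.

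Among metabolic genes none passed. Serine, glycine and one-carbon genes other than the members (17 measured) had a median of 0.00, led by FTCD (-0.20 ± 0.15 SE), CBS (0.15 ± 0.12) and MTHFD2L (-0.10 ± 0.09). Other genes of non-essential amino acid synthesis (14) had a median of -0.04 and 3 higher means, with PCK2, GLUL (-0.11 ± 0.14), the glutamine synthetase gene, and GLUD1 (-0.10 ± 0.13) leading. Amino acid transporters (22) had a median of 0.03, led by SLC38A9, a lysosomal arginine sensor (-0.16 ± 0.08), SLC7A2 (-0.23 ± 0.15) and SLC3A2 (0.10 ± 0.10). Aminoacyl-tRNA synthetases (19) had a median of -0.01, led by YARS (0.12 ± 0.10), FARSA (-0.09 ± 0.09) and HARS (-0.10 ± 0.11). Number 4 was lowest in both groups in 3 of 17, 6 of 14, 8 of 22 and 8 of 19 genes of these lists. The lists share genes, so these counts are not separate from that of the other ATF4 target genes. All 3 of the 17 were also on that list.

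The other arms of the unfolded protein response, through IRE1 and ATF6, had 0 of 24 genes past the threshold, 17 higher means and a median of 0.04. ERO1L, an endoplasmic reticulum oxidase gene, differed by -0.16 ± 0.11 (SE), HYOU1, a chaperone gene, by 0.14 ± 0.10 and MANF, a secreted stress factor gene, by 0.11 ± 0.10. Number 4 was lowest in both groups in 12 of the 24, with a median gap of 0.15. Regulators of mTORC1 around the sestrins (22 measured, 0 past the threshold) had a median of 0.01, led by TSC1 (-0.20 ± 0.10), RHEB (-0.16 ± 0.10) and RRAGD (-0.20 ± 0.13). Number 4 was lowest in both groups in 5 of these 22. Glutathione genes (10 measured) had a median of -0.05, led by GSR (-0.09 ± 0.09), OPLAH (-0.15 ± 0.15) and GGCT (0.16 ± 0.18), and number 4 was lowest in both groups in 2 of the 10.

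STC1, the paralogue of STC2, was at 12.88, 13.07, 13.02 and 12.42 in DMSO replicates 1 to 4 and at 13.11, 13.18, 13.14 and 12.77 with I3CA. STC1 was higher with I3CA in 4 of 4 numbers, as STC2 was, and its groups overlapped. The difference of 0.20 ± 0.15 (SE) did not pass. Of the tribbles relatives of TRIB3, TRIB1 differed by 0.16 ± 0.11 and TRIB2 by -0.06 ± 0.10.

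Markers of cell identity had 0 genes past the threshold. The leading genes were NES (0.11 ± 0.09 SE), CHI3L1 (0.09 ± 0.14) and CD44 (0.06 ± 0.11) for glioma and mesenchymal cells, and VWF (0.21 ± 0.11) and KDR (0.09 ± 0.11) for endothelium. The other leading genes differed by 0.09 or less in size: CSF1R, AIF1 and PTPRC for macrophages and leukocytes, SNAP25, MAP2 and RBFOX3 for neurons, and CDH1, KRT18 and EPCAM for epithelium. HPRT1 (-0.07 ± 0.09), RPLP0 (-0.07 ± 0.09) and GUSB (-0.06 ± 0.08) led the housekeeping genes. Over all 17 lists, 0 of 195 measured genes passed, and 0 had an unadjusted p under 0.05 in limma, against 3.16% of all genes.

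**Figure D5:**
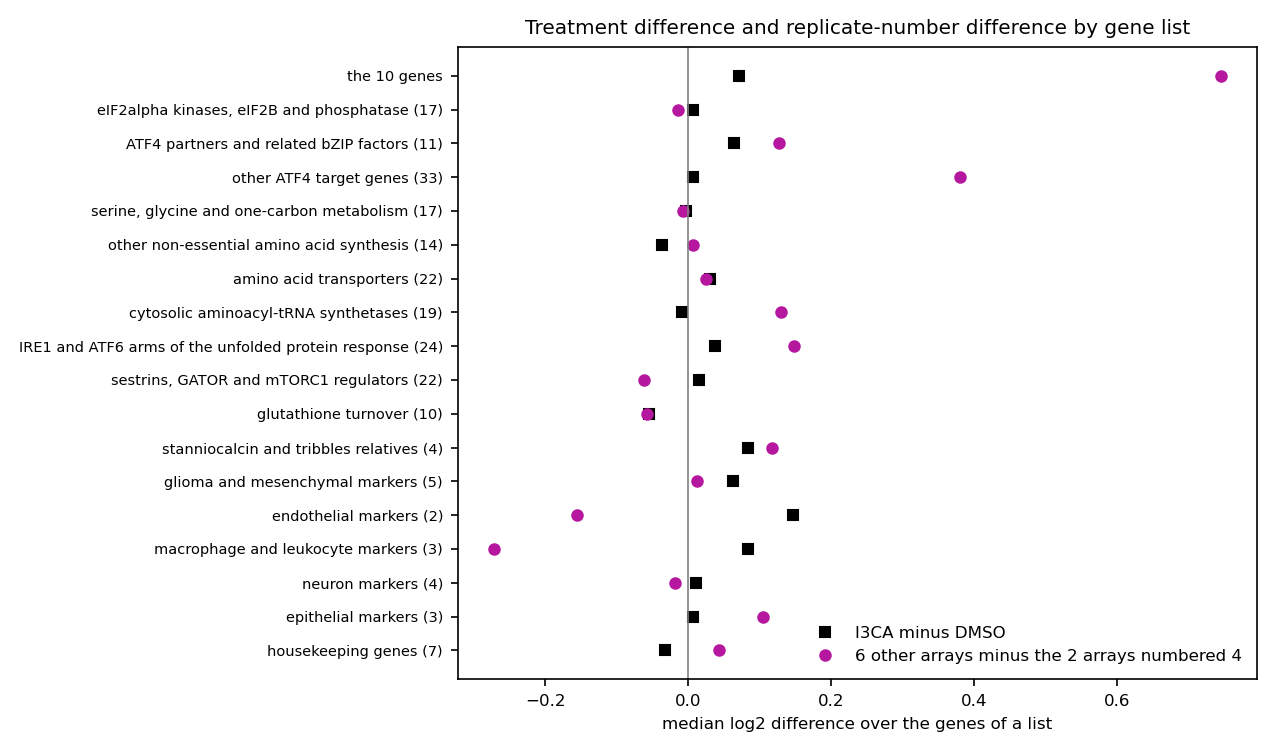
Median log2 difference over the genes of each list (measured genes in parentheses), for I3CA minus DMSO (black squares) and for the 6 other arrays minus the 2 arrays numbered 4 (magenta circles). The 10 genes are at 0.07 and 0.74, and the other ATF4 target genes at 0.01 and 0.38. The treatment medians of all lists lie between -0.05 and 0.15.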

How the data were processed

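Total RNA was labelled with biotin as single-stranded cDNA and read on 8 arrays. The authors deposited log2 expression values, 1 per probe set and array (13486 rows); oligo and RMA are named, without versions, per the submitters' processing notes. RMA corrects background, quantile-normalizes and summarises probes. The sources used here give no genome build, row filter or list of arrays normalized together. There was no measure of background, and precision rests on the number of arrays. An array fold tends to understate the change in RNA.

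Symbols came from GEO's platform annotation. Of the rows 11850 had 1 symbol, 657 several and 979 none. The brightest row stood for a gene. I3CA and DMSO were compared with limma 3.58.1 in R 4.3.3 (lmFit, eBayes, two-sided, no covariate), with Benjamini-Hochberg adjustment over 11822 genes and no set test. The fit was tested on simulated data. Alternatives were a replicate block, a brightness filter, row means, trended robust moderation, array weights, median centring, and leaving out arrays.

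Genes to be named were the 10 members, up to 3 genes of each list with the smallest p, and the 5 genes most like STC2 or the members' mean. The members and lists were chosen with earlier results of these data known. Of 234 listed genes 195 were measured, 23 by an older symbol. Promoters were from RefSeq (GRCh38.p14).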

Additional observations from a re-analysis of the deposited data

Results flagged for a closer look

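In 3 of 24 groups of 4 arrays, 1 array lay far from the other 3 by Dixon's criterion, where about 1.2 are expected by chance. STC2 was at 9.61 in DMSO replicate 4, with the other DMSO arrays at 10.05 to 10.11. The lowest array of STC2 with I3CA, also number 4, was not apart by that criterion. DDIT3 was at 9.09 in DMSO replicate 3, with the other DMSO arrays at 8.69 to 8.74. The first principal component over all genes was at 16.4 in I3CA replicate 4, with the other I3CA arrays at -5.62 to -4.90. The causes were not tested.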

How the results depend on the processing

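No member of the set passed the adjusted threshold under any of the 16 alternatives, nor did any gene of the wider lists. Depth cannot be stated for arrays. In fits without a replicate block the spread between replicate numbers limits what could be seen. Under all alternatives that gave a value, STC2 was higher with I3CA (0.36 to 0.58) and DDIT3 lower (-0.36 to -0.15). PSPH was higher under all of them (0.06 to 0.22). The brightness filter removed DDIT3. Some alternatives could not change a member's difference, so equal values there are no evidence of stability. These were the replicate block with all arrays, the brightness filter, row means (each member had 1 row) and trended robust moderation. The block without both arrays numbered 4 could likewise only repeat the differences of the fit without those arrays. With 1 array left out, the differences ran from -0.34 to 0.20 for ASNS, -0.015 to 0.47 for TRIB3, -0.085 to 0.18 for ATF4, -0.19 to 0.47 for CHAC1, -0.091 to 0.12 for PHGDH, -0.43 to 0.11 for PSAT1 and -0.11 to 0.37 for SESN2. The count of the 10 genes with a higher mean ran from 2 to 9, their median difference from -0.10 to 0.19, and the median pairwise correlation from 0.66 to 0.83. Without both arrays numbered 4 that count was 7 and the median difference 0.07. With array weights PHGDH turned to -0.00012. The median correlation was 0.51 without both arrays numbered 4 and 0.85 among genes at or above the median brightness.

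Over all genes, equal numbers did not pair most of the arrays by the criterion used, and number 4 had the highest correlation. Deviations from group means correlated over all genes at 0.04, 0.07, 0.05 and 0.32 for numbers 1 to 4, and 2 of 8 arrays correlated best with their own number. Over the 10 genes alone the correlations were 0.77, 0.52, 0.77 and 0.81. With the replicate block the count of genes past the threshold in limma was 1, as without it, and 557 (4.71%) had an unadjusted p under 0.05. Of the 10 genes 3 did (STC2, DDIT3 and TRIB3), and the smallest adjusted p was 0.50 (STC2). The block left the differences as they were. The block without both arrays numbered 4, chosen after seeing the data, gave 0 genes past the threshold in limma, with 447 at an unadjusted p under 0.05. STC2 alone of the members, with a log2 difference of 0.46, was still among those, and DDIT3 and TRIB3 no longer were. That fit has fewer arrays, and the cause was not tested.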
